A study of Homo sapiens with 16 samples.

Results

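RNA recovered with an antibody against NQO1 was compared with RNA recovered with control IgG in HepG2 cells kept in regular medium. The comparison took 8 of the 16 arrays of the series, 4 NQO1 precipitates and 4 IgG precipitates, chosen by their labels alone. HepG2 is an established human hepatocarcinoma line, and it is the single line used, so that nothing here extends to other liver cells. In both groups the cells stayed in regular culture medium with no drug for 30 min. Cytoplasmic lysate was then incubated with protein-A Sepharose beads carrying either the mouse NQO1 antibody (A180) or mouse IgG. The other 8 arrays come from cells given 10 µM β-lapachone for 30 min, 4 for each antibody. They served here to look again at probes picked in control medium and to set the antibody contrast over all tested probes beside that in control medium. An alternative fit of all 16 arrays also used them. The labels do not tell if replicates are separate cultures, and the p-values therefore cover only array-to-array spread, which may be technical.

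NQO1 is a cytosolic flavoprotein that reduces quinones with NADH or NADPH, and its gene is a classic target of the stress-responsive factor NRF2. In RNA immunoprecipitation, a protein is pulled from a lysate with an antibody and the RNA that comes along is measured. IgG with no target is carried through in parallel, because beads and antibody also hold RNA that the protein does not bind, so an RNA counts as enriched when it lies above its IgG level. The title of the series gives NQO1 an RNA-binding activity and names SERPINA1, the mRNA of a protease inhibitor that hepatocytes secrete. Here the question was which RNAs lay above or below IgG without any drug. The arrays carried probes under manufacturer IDs, and the gene tables used here held none of those IDs. Levels of SERPINA1, NQO1 and hepatocyte markers, and with them a check of the HepG2 label, were therefore not analysed here, and each result below concerns single probes.

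Of 47231 probes, 24564 were detected on at least 1 of the 8 arrays, where detected means a deposited detection p under 0.05. Detection on 4 or more of the 8 arrays admitted 16350 probes to the test, 34.6% of all. The limit lay near background: probes detected on exactly 4 arrays had a median intensity of 125, those detected on exactly 3 a median of 121, and those detected on all 8 a median of 780. Only 12 of the tested probes passed through 1 group alone, and 6845 were detected on all 8 arrays. Intensities are given as deposited on a linear scale, or as normalized log2 values, on which a difference of 1 is a 2-fold difference.

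The 8 arrays did not fall into groups by antibody in their overall profiles. The IgG arrays detected 16594, 13524, 17632 and 17230 probes (replicates 1 to 4), and the NQO1 arrays 18226, 17525, 14638 and 9101. Replicate 4 of the NQO1 precipitates stood apart as the dimmest array, with a median intensity of 91.5 where the other 7 lay between 101 and 127.5. Its 100 brightest probes held 33.6% of all intensity above the median, against 11.3% to 17.0% on the other arrays. The closest pair of the 28 was NQO1 replicate 1 and IgG replicate 3, at r = 0.993 across the tested probes, and 51 probes (0.312%) were at least 2-fold apart between them. NQO1 replicate 2 was also closest to IgG replicate 3 (r = 0.985), and IgG replicate 2 and NQO1 replicate 3 were closest to each other (r = 0.957). For 6 of the 8 arrays the most similar array was one of the other antibody, the exceptions being IgG replicates 1 and 4, which were closest to each other (r = 0.972).

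**Figure D1:**
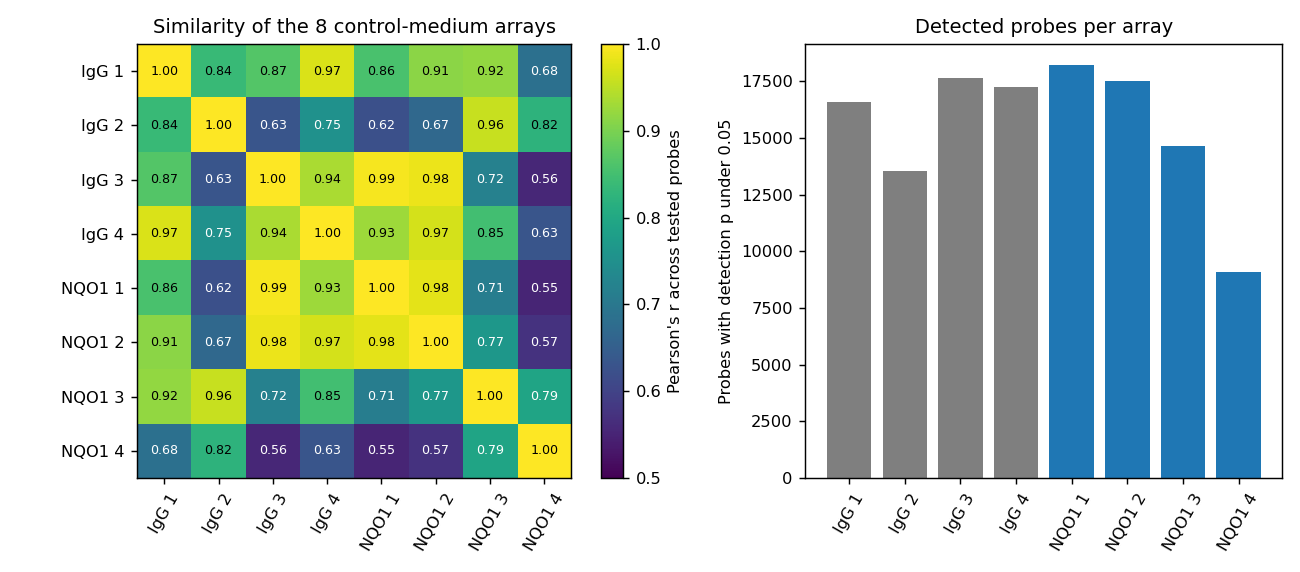
Left, Pearson's r between normalized log2 values of each pair of the 8 control-medium arrays across 16350 probes; right, the number of probes detected on each array (grey IgG, blue NQO1). NQO1 replicates 1 and 2 are most like IgG replicate 3, and NQO1 replicate 4, with 9101 detected probes, has r from 0.551 to 0.824 with the others.

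The median r was 0.852 for the 16 pairs of different antibody, 0.851 for the 6 pairs of IgG arrays and 0.738 for the 6 pairs of NQO1 arrays. Pairs of NQO1 arrays ran from 0.551 to 0.979 and pairs of IgG arrays from 0.631 to 0.972. A median of 34.8% of the probes were at least 2-fold apart between arrays of different antibody, 35.6% between IgG arrays and 54.7% between NQO1 arrays. Without NQO1 replicate 4 the median was 20.0% for the 12 remaining pairs of different antibody and 49.1% for the 3 remaining NQO1 pairs. Of the variance among the 8 arrays, 69.5% lay on the first principal component, and the antibody accounted for 1.63% of that component. The second held 21.3% of the variance, and the antibody accounted for 17.5% of it. On the first component NQO1 replicates 1 and 2 (-110 and -96.8) lay beside IgG replicate 3 (-108), and NQO1 replicates 3 and 4 (80.2 and 181) beside IgG replicate 2 (126). The exact permutation test, two-sided, gave adjusted p = 0.914 for each of 4 array measures (detected probes, share of the 100 brightest, median intensity and first component). With 4 arrays against 4 its smallest possible p is 0.0286 before adjustment.

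No probe passed the test of NQO1 against IgG. Across the 16350 probes, which are not independent replicates, the group means had a correlation of r = 0.976. By limma with Benjamini-Hochberg adjustment the smallest adjusted p was 1.00, and 0 probes (0%) were called. Before adjustment, 15 probes (0.0917%) had p under 0.05, 1 with a higher (0.00612%) and 14 with a lower mean (0.0856%) in the NQO1 precipitates. That share was below the 0.05 that equal groups would give on average. The count, of 16350 each time, was 2 without IgG replicate 1, 50 without IgG replicate 3 and 3 without IgG replicate 4. It was 9 without NQO1 replicate 1 and 201 without NQO1 replicate 3.

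The width of the intervals shows which enrichments these arrays could have missed. The 95% confidence interval of a probe's difference, taken one probe at a time, had a median half-width of 1.32 log2 units, or 2.50-fold. For 1290 probes (7.89%) the whole interval lay within a 2-fold difference in either direction, and for 10485 (64.1%) within a 4-fold difference. Looking upward only, a 2-fold enrichment lay outside the interval of 6978 probes (42.7%), a 4-fold enrichment outside that of 13125 (80.3%) and an 8-fold enrichment outside that of 15718 (96.1%). For a majority of probes a 2-fold enrichment by the NQO1 antibody thus remained within the interval. These counts pool probes of all levels, and the intervals were widest at middle levels. With the tested probes divided by mean level into 4 bins of equal size, the median interval reached 2.08-fold in the lowest bin, 2.96-fold and 3.15-fold in the next ones and 2.17-fold in the highest. The median SD among NQO1 arrays in these bins was 0.64, 1.24, 1.39 and 0.74 on the log2 scale, each above the 0.50, 0.89, 0.80 and 0.57 among IgG arrays. In the lowest bin only 26 of 4088 probes (0.64%) were detected on all 8 arrays, so its narrow intervals describe values close to background. The counts within 2-fold also include 9 of the 10 brightest probes, whose normalized values carry little information on a difference, as described below. For probes at either end, a narrow interval is therefore not read as absence of enrichment. Quantile normalization also gave all arrays the same distribution of values, so enrichment in these intervals is relative to the other probes. A general excess of RNA in the NQO1 precipitates over IgG could not be seen in them.

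The mean differed at least 2-fold for 607 tested probes, 121 higher (0.74%) and 486 lower (2.97%) in the NQO1 precipitates, with a median difference over all tested probes of -0.14 on the log2 scale. NQO1 replicate 4 was the lowest NQO1 array for 480 of the 486 lower probes. It was the highest NQO1 array for 81 of the 121 higher probes, and NQO1 replicate 1 for the other 40. Without replicate 4 the balance turned, with 299 probes higher and 11 lower. Each of 6 further omissions also moved at least 1 count by more than 1.5 times, to 69 higher and 217 lower without IgG replicate 1, 594 and 1866 without IgG replicate 2, and 546 and 959 without IgG replicate 3. Leaving out NQO1 replicate 1 gave 761 and 1454, leaving out replicate 2 gave 726 and 1633, and leaving out replicate 3 gave 578 and 1595. The split also turned with the scaling: 13 higher and 1544 lower with median centring, where the median of all tested probes moved to -0.39, but 208 higher and 2 lower with cyclic loess, where it moved to 0.01. No direction for the bulk of probes can be given from these counts.

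**Figure D2:**
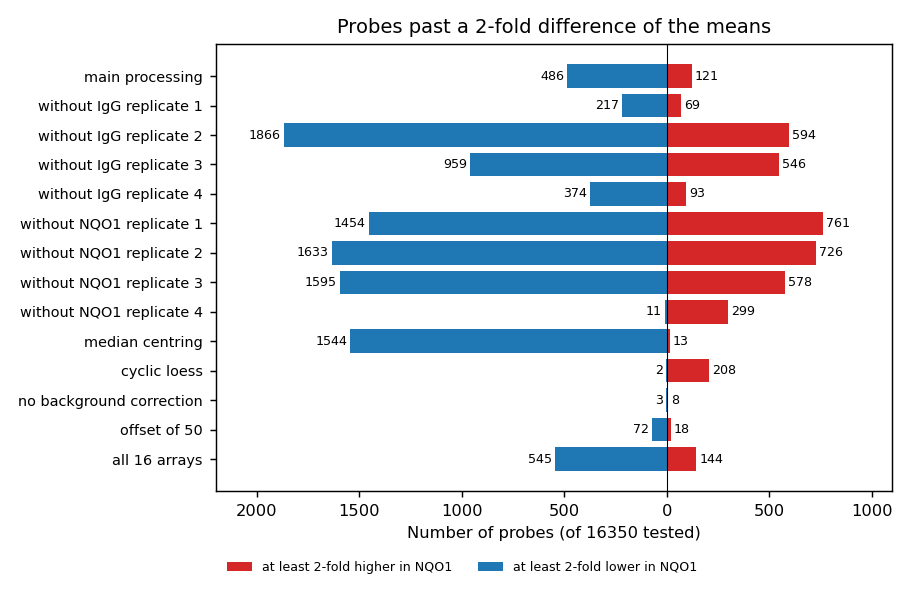
Number of the 16350 tested probes whose NQO1 mean was at least 2-fold above (red) or below (blue) the IgG mean, with the main processing, with each array left out and with other scalings. The main counts of 121 and 486 became 299 and 11 without NQO1 replicate 4.

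Among the 6845 probes detected on all 8 arrays, the differences were smaller and centred on 0. Their median difference was 0.00, and 90% of them lay between -0.50 and 0.65 on the log2 scale. A mean at least 2-fold higher in the NQO1 precipitates was found for 26 of them (0.38%) and at least 2-fold lower for 2 (0.0292%), so 484 of the 486 lower probes were undetected on at least 1 array. Their intervals reached a median of 2.32-fold, and 649 (9.48%) lay whole within 2-fold.

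**Figure D3:**
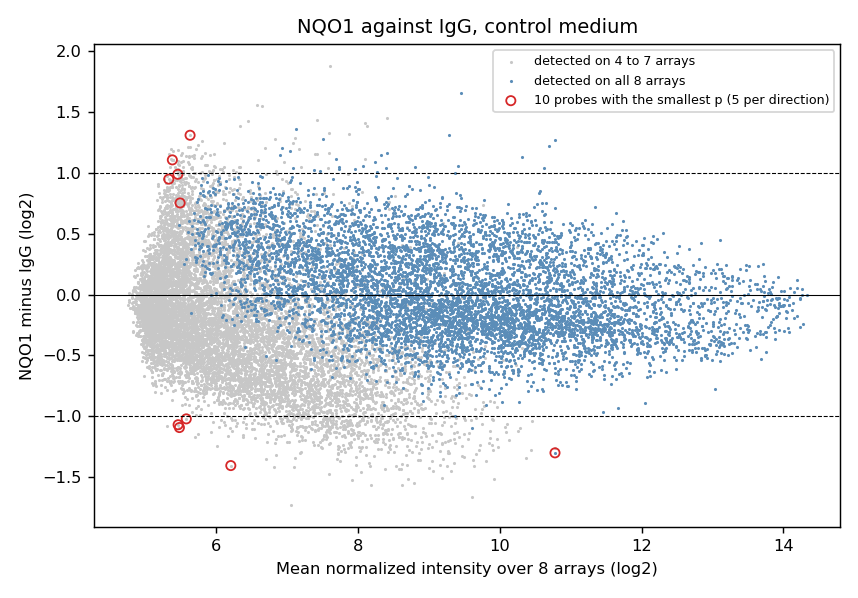
Difference of the group means (NQO1 minus IgG, log2) against the mean level of each tested probe; blue, probes detected on all 8 arrays; grey, the others; red circles, the 5 probes with the smallest p in each direction; dashed lines, 2-fold. Of the 10 circled probes, 9 have mean levels from 5.33 to 6.20, and 1, at -1.30, has a mean level of 10.78.

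The probes described singly are those with the smallest p in each direction by limma, and none of them passed after adjustment. The first of the lower probes, ILMN_1881909, was the one bright probe among them. Its normalized log2 intensity was 11.11, 11.55, 11.24 and 11.82 on the IgG arrays (replicates 1 to 4) and 9.87, 10.46, 10.05 and 10.13 on the NQO1 arrays. The NQO1 values were all under the lowest IgG value, and replicate 4 lay within the range of its group. The deposited intensities did not overlap either, at 3088, 2333, 2581 and 4382 for IgG against 1190, 2077, 1189 and 170 for NQO1. The group means were 11.43 ± 0.32 for IgG and 10.13 ± 0.24 for NQO1 (SD, n = 4 each), a log2 difference of -1.30 (SE 0.35), or 2.46-fold lower with NQO1. limma gave this probe an unadjusted p of 0.00481 and an adjusted p of 1.00. Across the other settings and omissions its difference ran from -2.08 to -0.83.

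ILMN_1881909 did not repeat on the arrays after β-lapachone. There it read 11.50 ± 0.16 in IgG and 11.66 ± 0.37 in NQO1 precipitates (log2, SD, n = 4 each), a difference of 0.16 (SE 0.31). The test of the difference between media gave -1.47 on the log2 scale, with an unadjusted p of 0.0044 and an adjusted p of 0.767 by limma.

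The next of the lower probes, ILMN_1669669, lay close to background. It read 5.87, 6.62, 5.69 and 5.80 on the IgG arrays and 4.91, 5.20, 5.01 and 4.57 on the NQO1 arrays (normalized log2), again without overlap. The difference was -1.07 (SE 0.37), with an unadjusted p of 0.0179 and an adjusted p of 1.00 by limma. All 4 IgG arrays but only 2 NQO1 arrays detected it. In deposited intensities the groups overlapped: IgG replicate 2 read 122, below NQO1 replicates 1 and 2 at 134 and 152. After β-lapachone its mean was also lower with NQO1, by -0.72 (SE 0.34, adjusted p = 0.735 by limma), at 5.39 ± 0.15 against 6.11 ± 0.50 (n = 4 each). The highest value there, 6.57 on IgG replicate 4, came from the lowest deposited intensity of the 8 β-lapachone arrays (98.1). Without background correction its difference in control medium was -0.36. The other 3 of the 5 leading lower probes had differences from -1.41 to -1.02, were detected on 4 IgG arrays and on 2 or 3 NQO1 arrays, and read between 4.42 and 7.40.

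**Figure D4:**
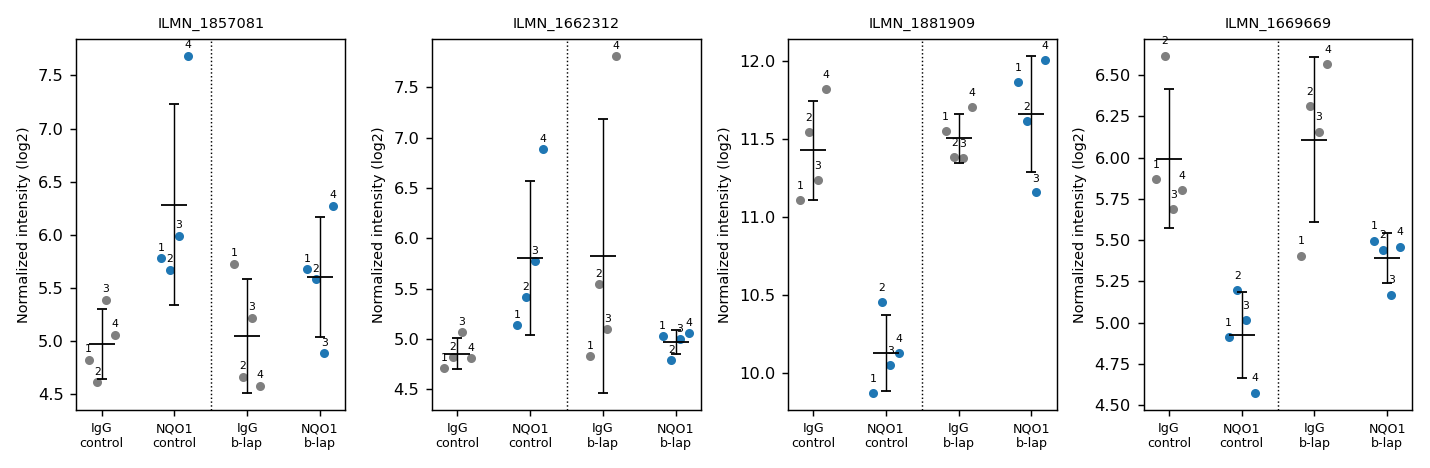
Normalized log2 intensity of 4 probes on every array, with replicate numbers, group means (bars) and SD (n = 4 each); grey IgG, blue NQO1; the panels to the left of each dotted line were normalized over 8 arrays and those to the right over 16. ILMN_1881909 separates the antibodies in control medium, at 11.43 against 10.13, and not after β-lapachone.

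The first of the higher probes, ILMN_1857081, read 4.83, 4.61, 5.39 and 5.06 on the IgG arrays and 5.78, 5.67, 5.99 and 7.69 on the NQO1 arrays (normalized log2). The groups did not overlap, and replicate 4 was far above the rest of the NQO1 group. Its deposited intensity on that array was 101, under every NQO1 array and all IgG arrays but replicate 2 (99.5). On replicate 4 the lowest normalized value of any detected probe was 6.88, against 4.88 to 5.42 on the other arrays, so that a probe barely above background there took a high normalized value. The difference of the means was 1.31 (SE 0.51), with an unadjusted p of 0.0309 and an adjusted p of 1.00 by limma. Without NQO1 replicate 4 it was 0.90, with median centring 0.62 and with no background correction 0.50. It was present on 2 IgG arrays and on all 4 NQO1 arrays, and after β-lapachone its difference was 0.56 (SE 0.48).

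ILMN_1662312, the next of the higher probes, read 4.71, 4.82, 5.07 and 4.81 with IgG and 5.13, 5.42, 5.77 and 6.88 with NQO1. Its highest value, on NQO1 replicate 4, came from an intensity of 98.4 that was not detected. The difference was 0.95 (SE 0.44, unadjusted p = 0.0613 and adjusted p = 1.00 by limma), and 0.63 without that array. After β-lapachone its difference had the opposite sign, -0.85 (SE 0.56). There IgG replicate 4 read 7.82, from the lowest deposited intensity of the 8 β-lapachone arrays (102). The other IgG arrays read 4.83, 5.54 and 5.10, and the NQO1 arrays between 4.79 and 5.06. The other 3 of the 5 leading higher probes had differences from 0.75 to 1.11 and were each detected on 1 of 4 IgG arrays and on 3 or 4 NQO1 arrays. Without NQO1 replicate 4, 2 of the 3 had differences of 0.68 and 0.59.

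The largest differences among probes detected on all 8 arrays came with wide spread inside each group. The probe with the largest higher mean had a log2 difference of 1.66 (SE 1.75, unadjusted p = 0.369 and adjusted p = 1.00 by limma). That difference ran from 0.63 without NQO1 replicate 1 to 3.17 without IgG replicate 3, and its value moved by over 1.5 times with 4 further omissions, to 0.97 without IgG replicate 1, 1.10 without IgG replicate 2, 1.06 without NQO1 replicate 2 and 2.71 without NQO1 replicate 3. It had deposited intensities of 8855 on IgG replicate 3 and of 11940 and 6058 on NQO1 replicates 1 and 2. On the other 5 arrays it read between 108.5 and 384. Its high arrays were thus the same 3 that resembled each other across all probes, and it separated arrays within each antibody group and not the groups. After β-lapachone it again took both kinds of value within a group, with normalized values of 12.94, 7.45, 6.46 and 8.31 for IgG and 12.93, 12.55, 7.54 and 13.29 for NQO1. The other 4 of the 5 largest higher probes had differences from 1.27 to 1.36 with SE from 0.71 to 0.97, and the groups overlapped for each of them. Leaving out NQO1 replicate 4 took 2 of the 4 to 0.57 and 0.74. The other 2 went to 0.82 and 0.80 without IgG replicate 1 and to 2.01 and 2.06 without IgG replicate 3, and 1 of these to 1.98 without NQO1 replicate 3.

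In the other direction, 4 of the 5 largest lower differences among these probes, from -1.09 to -0.93, went with NQO1 replicate 4. That array was the lowest of the 8 for each of the 4, and the groups overlapped. Without it their differences ran from -0.46 to -0.22, and without NQO1 replicate 2 that of 1 of them was -1.45. One of them read 12.20, 11.95, 12.12 and 12.24 on the IgG arrays and 12.19, 12.13, 10.68 and 9.78 on the NQO1 arrays. NQO1 replicates 1 and 2 thus lay at the IgG level for that probe and replicates 3 and 4 below it. The remaining one of the 5 was ILMN_1881909, the only one whose groups did not overlap. After β-lapachone the mean of all 5 was higher with NQO1, by 0.16 to 0.99 on the log2 scale. For the 4 other than ILMN_1881909, IgG replicate 4 had the lowest normalized value of the 8 β-lapachone arrays.

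The 10 probes with the highest mean normalized level were detected on every array. Their deposited intensities on NQO1 replicate 4 were between 3673 and 14098, on the other 7 arrays between 17769 and 26498. Quantile normalization gives the top ranks of every array nearly the same value, so that the normalized values of these probes, 14.19 to 14.33 in the mean, carry little information on a difference between the antibodies. The log2 differences, from -0.27 to 0.12, are therefore given as a description, and no interval is read from them.

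Detection calls do not depend on scaling between arrays, and their balance went with 1 array. NQO1 arrays detected a mean of 14872 probes and IgG arrays 16245 (exact permutation p = 0.686, two-sided, n = 4 each), and without NQO1 replicate 4 the NQO1 mean was 16796 (n = 3). Of the tested probes, 9388 were detected on as many NQO1 as IgG arrays, 6303 on more IgG arrays and 659 on more NQO1 arrays. The largest class after the 6845 probes present on all 8 arrays was that of 3706 probes present on 4 IgG and 3 NQO1 arrays. For 3600 of these the missing array was NQO1 replicate 4, for 52 replicate 1, for 18 replicate 2 and for 36 replicate 3.

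**Figure D5:**
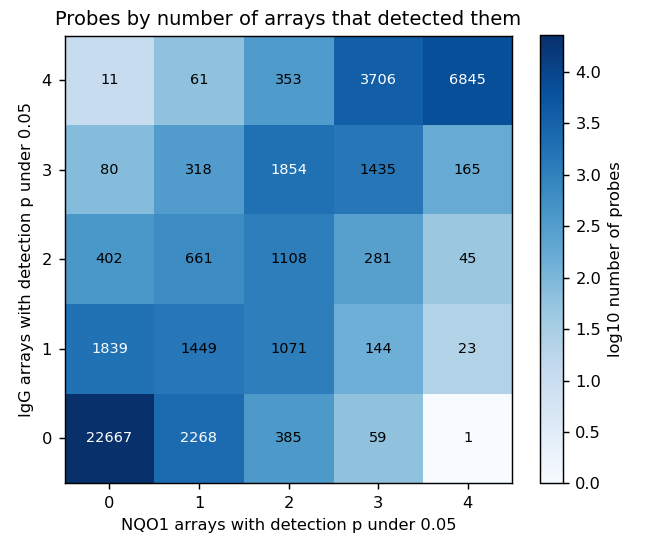
Number of the 47231 probes by how many of the 4 IgG arrays (vertical) and 4 NQO1 arrays (horizontal) detected them; colour is the log10 of that number. The corner for presence on all NQO1 and no IgG arrays holds 1 probe, and the opposite corner 11.

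A single probe of 47231 (0.00212%) was present on all 4 NQO1 arrays and on no IgG array, and 11 (0.0233%) showed the opposite. The single probe had deposited intensities of 146, 140.5, 124 and 105 with NQO1 and of 123, 104.5, 122 and 119 with IgG, so that the groups overlapped before normalization. Its highest detection p among NQO1 arrays was 0.0481 and its lowest among IgG arrays 0.0506, on either side of the threshold by a narrow margin. Its normalized values were 5.17, 4.96, 5.22 and 8.38 with NQO1, so that the bound, at least 1.82-fold higher with NQO1 (adjusted p = 1.00 by limma), rested on replicate 4. Without that array it was at least 1.04-fold. After β-lapachone 3 NQO1 and 2 IgG arrays detected it, but its mean was lower with NQO1 there, with a log2 difference of -0.38. The 11 opposite probes were as dim, with mean IgG intensities between 123 and 142. A lower bound above 1 could be given for 3 of them, at least 1.02-fold, 1.02-fold and 1.29-fold lower with NQO1 (adjusted p = 1.00 by limma for each). The normalized values of the groups overlapped for the probe at 1.29-fold, with 4.96 on IgG replicate 3 and 5.17 on NQO1 replicate 4. They also overlapped for 1 of the probes at 1.02-fold. None of the 11 showed the same detection pattern after β-lapachone, where 2 were detected on more IgG than NQO1 arrays and 3 on equal numbers. Their means there were mostly still lower with NQO1. The log2 differences ran from -1.02 to 0.37, and the only positive one was 0.37. Over all tested probes, 48.3% had a lower mean there. Such a bound divides the mean of the brighter group by that of the dimmer one, with each dim array raised at least to the lowest normalized value of its detected probes.

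The antibody groups were fully separate for 59 tested probes (0.361%), 14 higher (0.0856%) and 45 lower (0.275%). Without any difference between the antibodies, 4 arrays against 4 separate fully with a probability of 0.0286 per probe. The share found was smaller than that, so separation by itself does not mark a probe. Most were dim, since 44 of the 59 fell in the lowest bin of mean level and 7 were among the 6845 detected on all 8 arrays (0.102%). The arrays after β-lapachone, which share no sample with these, gave a second look at the same antibody contrast. There, 8 of the 14 higher and 30 of the 45 lower probes kept their sign. Over all tested probes, 36.4% kept their sign, and after β-lapachone the mean was higher with NQO1 for 51.7% and lower for 48.3%. Of the 59, 3 also had separate groups in the same direction after the drug, 1 higher and 2 lower. Over all tested probes the groups were separate there for 105 (0.642%), 44 higher (0.269%) and 61 lower (0.373%). The 486 probes at least 2-fold lower in control medium had a median of -1.12 there and of 0.55 after β-lapachone, and 94 of them kept their sign. The 121 at least 2-fold higher had medians of 1.11 and 0.13, and 65 kept their sign. Of the 15 probes with an unadjusted p under 0.05 by limma in control medium, 12 kept their sign, with medians of -1.12 and -0.36. Of these 15, 1 was detected on all 8 control-medium arrays, and 0 had separate groups in the same direction in both media. Across the 16350 probes the differences in the 2 media correlated at r = -0.248, a description over probes that share their arrays. Among the β-lapachone arrays, IgG replicate 4 was dim for several of the probes described above. ILMN_1881909 had a deposited intensity of 874 on it, against 2203 to 3642 on the other IgG arrays. In control medium the dimmest array was an NQO1 array. No β-lapachone array was left out, so the part of IgG replicate 4 in the changes of sign was not tested. After β-lapachone no probe passed limma's test either (0%), with 75 under 0.05 before adjustment (0.459%) and 0.735 as the smallest adjusted p. For the difference of the antibody contrast between media, 0 probes passed by limma (0%), with 24 under 0.05 before adjustment (0.147%) and 0.767 as the smallest adjusted p.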

How the data were processed

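Probe intensity was deposited on a linear scale by the authors in 1 table of 47231 probes and 16 arrays, under a name that calls it not normalized. A detection p-value stands right of every intensity, per the file headers. The submitters' processing notes name GenomeStudio 2011.1, with settings not given in the sources. Per the labels' protocols, precipitated RNA was copied with an oligo-dT primer and carried biotin, so polyadenylated RNA was read.

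The 8 control-medium arrays were normalized alone with neqc (normexp fitted from the detection p, offset 16, quantile, log2) in limma 3.58.1 under R 4.3.3. Probes with a detection p under 0.05 on at least 4 of the 8 arrays were fitted with lmFit and eBayes, with a threshold of 0.05 after Benjamini-Hochberg adjustment over them. Values after β-lapachone come from all 16 arrays normalized together, with 1 mean for each of the 4 groups. Array measures were compared by exact permutation tests. Described were, for each direction, the 5 probes with the smallest p and the 5 with the largest difference among probes detected on all 8 arrays, and besides the 10 brightest and those detected in 1 group only. With no gene names, IDs are printed for the first 2 per direction, and the planned gene lists were not analysed here. Members, rules and alternatives were chosen with earlier results of these data known. Normalization, background correction, offset, filter, arrays fitted, array weights, variance prior, replicate block, a covariate and each array left out were varied. Leaving NQO1 replicate 4 out of the detected-probe mean, the array pairs and the bound of the probe detected with NQO1 alone was chosen after seeing the data, with normalized values kept. The fit was tested on simulated independent values of equal spread, which these arrays do not have. That test checks the fit itself and not what could be found in these data. The number of arrays limits the precision.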

Additional observations from a re-analysis of the deposited data

Results flagged for a closer look

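Of 16 groups of 4 arrays examined (4 array measures and the 4 probes with printed IDs, in each antibody group), 2 held an array far from the rest by Dixon's 95% criterion. Chance would meet it in 0.8 of 16 independent groups, but these groups share arrays. The 4 probes were also picked for the smallest p on these same values, so 0.8 is only a rough guide. Both flagged arrays were NQO1 replicate 4. Its 100 brightest probes held 33.6% of the intensity above the median, with 13.7% on the next array of its group. For ILMN_1857081 it read 7.69 on the log2 scale, with 5.99 on the next array. None of the 29 probes described singly differed between media in its antibody contrast by limma (0 passed after adjustment).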

How the results depend on the processing

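The count of calls was 0 with the main processing and in all 20 alternatives (0 to 0 when each array was left out in turn), and the smallest adjusted p by limma was 0.423 with array weights and 0.912 or more otherwise. The array weights ran from 0.114 (NQO1 replicate 4) to 24.7 (NQO1 replicate 2), and their estimation stopped before convergence. With them, 1836 of the 16350 tested probes reached an unadjusted p under 0.05 by limma. That share was above the 0.05 that equal groups would give on average. The number under 0.05 was 569 of 47231 without a detection filter and 1 of 6845 with probes detected on all 8 arrays. Of the 16350 probes, it was 65 with detected probes as a covariate, 34 with all 16 arrays fitted and 5 without background correction. These shares lay below 0.05. At least 2-fold higher and lower were 331 and 56 probes with the covariate, 1164 and 149 with array weights, 18 and 72 with an offset of 50, and 8 and 3 without background correction. Groups did not overlap for 829 of 47231 probes without a filter and for 94 to 491 of 16350 with 1 array left out, where fewer arrays can overlap. Same-numbered arrays had deviations correlated at -0.21, -0.85, -0.84 and -0.55, so the replicate numbers were not taken to pair them, and the replicate block gave 0 calls and, before adjustment, 0 probes under 0.05 by limma. Of 369 differences of the 19 leading or largest probes recomputed, 368 kept their sign. With array weights, 1 of the largest lower probes turned from -0.96 to 0.065. These probes were picked on the same arrays that the settings refit, so the kept signs were largely fixed beforehand. The cause of the differences was not tested. Dim probes limit the comparison, since 9505 of the tested probes were undetected on at least 1 array.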
